A study of Mus musculus with 4 samples.

Results

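Plasmacytoid dendritic cells are the professional type I interferon producers of the immune system. They sense nucleic acids in endosomes through Toll-like receptors and depend on the E protein Tcf4, and in the mouse they carry B220, the same CD45 form by which early B-lineage cells are sorted. The genes described here are 10 markers of these cells (Siglech, Bst2, Ccr9, Pacsin1, Cox6a2, Klk1, Klk1b27, Lair1, Upb1 and Atp1b1), chosen by name and not by their values. All 10 were found by gene name on the array, on 15 of 39429 probes, and all 10 were well above background on all 4 arrays, so all passed the filter that left 19391 genes to test.

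RNA came from bone marrow cells of C57BL/6 mice, sorted as lineage-negative, B220+ and CD43+ cells without BP1 and CD24, a gate taken as preproB cells, and was measured on 1-colour Agilent arrays. The 2 EnhDel samples came from mice with a floxed Cebpa enhancer, which lies 37 kb downstream of the gene, and the interferon-inducible Mx1-Cre. The 2 control samples came from mice with the same floxed enhancer and no Cre. Mice of both groups had been given 3 doses of pIpC, which mimics viral RNA and switches on Mx1-Cre through interferon, 5 weeks before the cells were taken. Mx1-Cre acts in many cell types, and since the controls carry no Cre, its effects and those of the deletion cannot be told apart. The labels give an age of 24 weeks for both EnhDel samples and control replicate 2, and of 26 weeks for control replicate 1. No plasmacytoid dendritic cells were purified, so the markers were read in the sorted population as a whole, where fewer cells of a type and less RNA per cell cannot be told apart.

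The sex labels were only in part borne out. Control replicate 1, labelled female, had a signal of 3116 for the Y-linked gene Ddx3y and of at most 4.95 for Xist, which was not above background there. EnhDel replicate 2, labelled male, had the lowest Ddx3y signal, 1560, against 3624 on EnhDel replicate 1 and 3474 on control replicate 2. It also had the only Xist signals above background, 597 and 1551 on its 2 probes. What this says about the make-up of that sample was not tested. How values move without an array is given beside the results it changes and in the closing section. Cebpa itself had signals of 125 and 287 on the EnhDel arrays, against 1271 and 927 on the control arrays (log2 difference -2.41 ± 0.44, SE; limma adjusted p = 0.237). Its probe reads the transcript and not the deleted enhancer.

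The 10 markers gave strong signals in both groups, and none of them differed between the groups past the threshold. Their brightest probes had signals between 8066 and 184928, while the lowest signal well above background was 12.2 to 14.4 across the arrays. No spot was saturated. In limma's fit over all genes, 0 of the 10 markers and 0 of the 19391 genes (0%) had a Benjamini-Hochberg adjusted p under 0.05. At an unadjusted p under 0.05 there were 0 of 10 markers and 2173 genes, or 11.2% of all. Both EnhDel arrays lay above both control arrays for 3 of 10 markers, where 28.6% of all genes did, and below them for 0 of 10, where 15.5% of all genes did. In either direction the groups did not overlap for 44.1% of all genes. The median log2 difference over the 10 markers was 0.045, beside 0.069 over all genes tested.

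**Figure D1:**
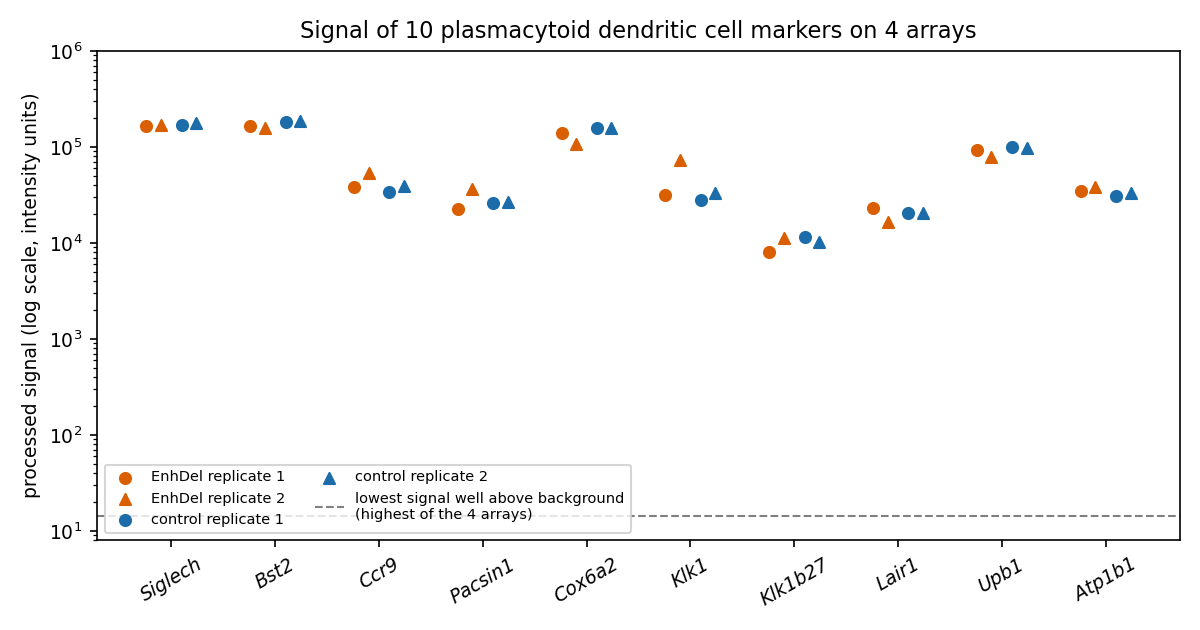
Processed signal (vertical log axis, intensity units) of the brightest probe of each of the 10 markers. Points are single arrays, EnhDel in orange and control in blue, and the dashed line is the lowest signal well above background, 14.4. All 40 points lie at 8066 or above.

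Siglech encodes a member of the sialic acid-binding lectin family on mouse plasmacytoid dendritic cells and is among their most specific surface markers. Its brightest probe had signals of 164088 and 169885 on the EnhDel arrays and 169857 and 177653 on the control arrays. After scaling the ranges of both groups overlapped. The EnhDel over control ratio was 1.04, with a 95% interval of 0.784 to 1.37 from limma (log2 difference 0.051 ± 0.15, SE; adjusted p = 0.917). A difference of either sign within that interval cannot be told from none.

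Siglech has 3 probes on the array, and its 2 bright probes gave close values. The second bright probe had signals of 125544 and 122067 in EnhDel and 128462 and 130071 in control cells, with a log2 difference of 0.046 ± 0.16 (SE, n = 2 per group). Its position is chr7:63034088-63034147 (mm9, plus strand). The last 30 bases of that probe are shown because they hold a simple repeat, in capitals, which other transcripts may also carry:
Siglech probe end: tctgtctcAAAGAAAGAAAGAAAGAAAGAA
The third probe, designed on another transcript record, had signals of 3360 and 4550 in EnhDel and 3334 and 3677 in control cells and a log2 difference of 0.27 ± 0.18. On this dim probe both EnhDel values lay above both control values after scaling.

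Bst2 encodes tetherin, a membrane protein that retains budding viruses, is known by the antibody name PDCA-1 on plasmacytoid dendritic cells, and can be induced by interferon in many other cells. Its signals were 163512 and 157897 on the EnhDel arrays, against 179196 and 184928 on the control arrays. After scaling to each array's 75th percentile the groups overlapped, with a ratio of 0.951 (95% interval 0.707 to 1.28; limma adjusted p = 0.889). The interferon-stimulated list gave other values. All 14 of its tested genes lay above both control arrays on both EnhDel arrays, where 28.6% of all genes did. The median log2 difference of the list was 1.22. Of the 14, 0 passed the adjusted threshold and 11 had an unadjusted limma p under 0.05, where 11.2% of all genes did. Oas1a, an interferon-induced activator of RNase L, had signals of 2168 and 5496 in EnhDel cells and 555 and 1169 in control cells.

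The Bst2 promoter is shown because its gene is interferon-inducible and yet sat at -0.072 while the list had its median at 1.22. In the RefSeq table (GRCm38.p6), the stretch from 250 bases before to 50 after the gene's start holds 2 matches to GAAA, any 2 bases and GAAA again, the letters of an interferon response element core, searched on both strands. They share 4 bases and run together over 16 bases, from 130 to 115 bases before the start. The 30 bases around them, at chr8:71537580-71537609 on the minus strand, are given with the matches in capitals:
Bst2 promoter: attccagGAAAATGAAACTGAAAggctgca
Of all 32851 promoters of this length in the table, 3.44% hold the letters. They occur in 1 of the 9 markers found in the table (Cox6a2 was not in it) and in 5 of the 8 promoters found for the 14 genes of the interferon-stimulated list, those of Ifit1, Ifit3, Isg15, Oas1a and Rsad2. A match is a description of the sequence and not of a site in use.

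Ccr9, the receptor for the gut and thymus chemokine CCL25, is carried by mature plasmacytoid dendritic cells and guides them to the small intestine. Its signals were 38425 and 53268 in EnhDel cells and 33853 and 39227 in control cells, and after scaling both EnhDel values lay above both control values. The ratio was 1.34 (95% interval 0.941 to 1.90; limma adjusted p = 0.504). Its second probe read 4059 and 4881 in EnhDel cells and 2942 and 3761 in control cells, a log2 difference of 0.53 ± 0.17 (SE, n = 2 per group). The ligand gene Ccl25 had signals of 394 and 363 on the EnhDel arrays and 465 and 488 on the control arrays, a log2 difference of -0.23 ± 0.17.

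Lair1, an inhibitory receptor for collagens, was read differently by its 2 probes. The brighter one had signals of 22891 and 16394 in EnhDel cells and 20452 and 20208 in control cells, so the EnhDel values lay on either side of the control values. The ratio was 1.03 (95% interval 0.640 to 1.65; limma adjusted p = 0.965). The dimmer probe, designed on another transcript variant, read 1488 and 3063 in EnhDel cells and 1555 and 2055 in control cells. EnhDel replicate 2 was thus the lowest array by the brighter probe and the highest by the dimmer one.

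Pacsin1, an adaptor of endocytosis and the cytoskeleton that plasmacytoid dendritic cells need for their full interferon response, had signals of 22285 and 36613 in EnhDel cells and 26054 and 26564 in control cells. The lower and the higher EnhDel value enclosed both control values. The ratio was 1.17 (95% interval 0.731 to 1.87; limma adjusted p = 0.781), and the second probe had a log2 difference of 0.32 ± 0.22 (SE). Its widely expressed relative Pacsin2 had a log2 difference of -0.33 ± 0.17.

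Cox6a2 encodes the heart and muscle form of a cytochrome c oxidase subunit, which plasmacytoid dendritic cells also express. Its signals were 140458 and 105779 in EnhDel cells and 156806 and 157467 in control cells. After scaling, EnhDel replicate 1 fell between the control arrays and EnhDel replicate 2 below both, for a ratio of 0.836 (95% interval 0.541 to 1.29; limma adjusted p = 0.729). The form found in most tissues, Cox6a1, had a log2 difference of -0.13 ± 0.19 (SE).

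Upb1, the last enzyme of pyrimidine breakdown, had signals of 92822 and 77573 in EnhDel cells and 98494 and 97556 in control cells. After scaling EnhDel replicate 1 fell between the control arrays and EnhDel replicate 2 was the lowest of the 4. The ratio was 0.933 (95% interval 0.643 to 1.35; limma adjusted p = 0.878). Atp1b1, the beta subunit of the sodium pump, had signals of 34609 and 37691 in EnhDel cells and 30660 and 33061 in control cells. Its values lay closest together within each group (SD 0.0065 in EnhDel and 0.036 in control on the log2 scale), with both EnhDel values above both control values. The ratio was 1.22 (95% interval 0.933 to 1.60; limma adjusted p = 0.546). Of the other beta subunit genes, Atp1b3 differed by -0.024 ± 0.18 on the log2 scale, and Atp1b2 was well above background on the EnhDel arrays alone, with signals of 58.8 and 18.6 there and 3.14 and 10.3 on the control arrays.

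**Figure D2:**
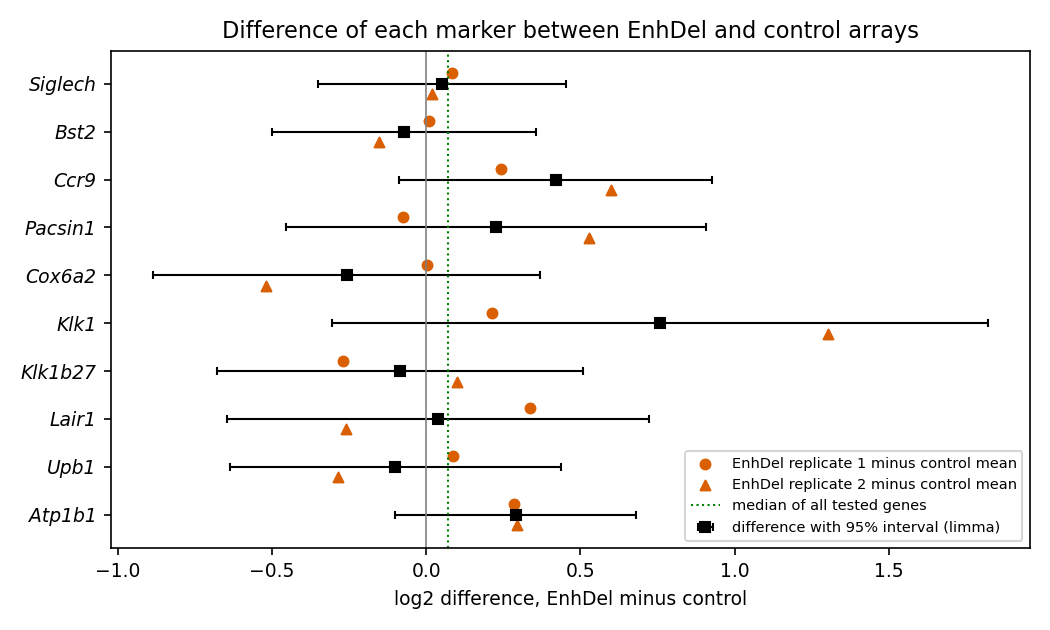
Log2 difference of each marker (horizontal axis, EnhDel minus control; squares with 95% intervals from limma) with the value of each EnhDel array minus the control mean (circles, replicate 1; triangles, replicate 2). All 10 intervals span 0, and the dotted line marks the median of all genes, 0.069.

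Klk1 encodes tissue kallikrein, a serine protease that releases kinins, and Klk1b27 is one of its many close relatives in the mouse. The family lies in a tight cluster on chromosome 7, and both genes are among the transcripts known from mouse plasmacytoid dendritic cells. Because the relatives are so alike, the probes are shown first. The Klk1b27 probe (chr7:51311959-51312018, mm9, plus strand) and the Klk1b11 probe (chr7:51255119-51255178, mm9, plus strand) cover matching stretches of their genes and differ at 6 of 60 bases, in capitals:
Klk1b27: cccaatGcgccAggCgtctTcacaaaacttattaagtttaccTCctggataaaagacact
Klk1b11: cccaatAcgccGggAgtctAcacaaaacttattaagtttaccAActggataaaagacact
Counted from 1 at the probe's 5′ end, with the Klk1b27 base first, these are G7A, A12G, C15A, T20A, T43A and C44A. On the same arrays the Klk1b27 probe read 8066 and 11253 in EnhDel cells and 11566 and 10255 in control cells, and the Klk1b11 probe read 33.1 and 228 in EnhDel cells and 69.2 and 51.2 in control cells.

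The Klk1 probe also shares sequence with probes of its neighbours. It shares an unbroken run of 28 bases with the Klk1b4 probe, and the Klk1b8 and Klk1b21 probes hold the matching stretch with 2 and 5 differing bases. The capitals mark that stretch:
Klk1: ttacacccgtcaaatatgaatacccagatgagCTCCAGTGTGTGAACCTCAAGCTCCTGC
Klk1b4: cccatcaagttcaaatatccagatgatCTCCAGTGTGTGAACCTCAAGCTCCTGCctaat
Klk1b8: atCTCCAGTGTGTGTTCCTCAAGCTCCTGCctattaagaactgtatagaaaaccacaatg
Klk1b21: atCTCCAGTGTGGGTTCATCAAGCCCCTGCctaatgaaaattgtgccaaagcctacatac
Counted on the Klk1 probe with its base first, the differences are A45T and A46T in Klk1b8, and T43G, A45T, A46T, C48A and T55C in Klk1b21. The Klk1 and Klk1b4 probes, at chr7:51484170-51484325 and chr7:51466302-51466457, each span 156 genomic bases with 60 probe bases. The Klk1b8 and Klk1b21 probes lie at chr7:51209619-51209678 and chr7:51361257-51361316 (all mm9, plus strand). Transcripts of 1 member could bind the probe of another, so the family's values may not be independent and single members are uncertain.

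Klk1 had the widest spread between arrays of the 10 markers. Its signals were 31347 and 72283 in EnhDel cells and 28054 and 32805 in control cells, with both EnhDel values above both control values after scaling. On the log2 scale EnhDel replicate 1 lay 0.21 and EnhDel replicate 2 lay 1.30 above the control mean. The ratio was 1.69 (95% interval 0.809 to 3.53; limma adjusted p = 0.559). In a fit with EnhDel replicate 2 as the only EnhDel array, which assumes it to vary like the control arrays, Klk1 differed by 1.30. Klk1 did not stand out there, since 8 relatives with control signals above 1000 lay 0.78 to 1.53 above the control mean on that array. Klk1b27 gave no such pattern, with a ratio of 0.943 (95% interval 0.625 to 1.42; adjusted p = 0.907).

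The other Klk1b genes were set beside Klk1 over a cluster of 275 kb. Of 12 listed, 11 were tested, and Klk1b1 was not well above background on any array. EnhDel replicate 2 lay above both control arrays in 10 of the 11 genes, the exception being Klk1b9, where 50.2% of all genes did. EnhDel replicate 1 lay above both in 7 of the 11, where 48.8% of all genes did. In the 8 genes with control signals above 1000, a level chosen after the values were seen, it lay 0.78 to 1.53 above the control mean on the log2 scale, while EnhDel replicate 1 lay between -0.12 and 0.22 and above both control arrays in 7 of the 8. Klk1b5, the brightest of them, read 72742 and 118012 in EnhDel cells and 68382 and 74403 in control cells. None of the 11 passed the threshold, with limma adjusted p from 0.532 to 0.832. EnhDel replicate 2 is also the array with the Xist signal, and the part of either probe sharing or the make-up of that sample in the kallikrein values was not tested.

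**Figure D3:**
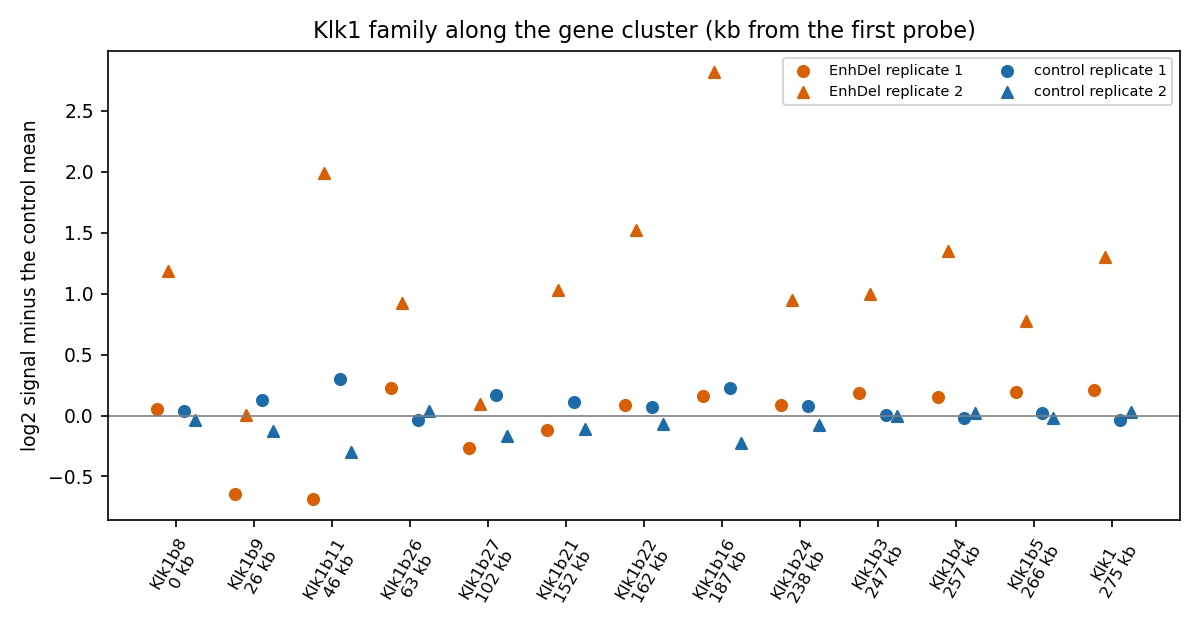
Log2 signal minus the control mean for Klk1, Klk1b27 and the 11 tested relatives, ordered along the cluster by distance from the first probe in kb. EnhDel replicate 2 (orange triangles) lies above both control arrays (blue) in Klk1 and 10 relatives, and EnhDel replicate 1 (orange circles) lies near the controls for most genes.

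Among the relatives of Siglech, the myeloid receptor gene Siglece had signals of 1613 and 4762 in EnhDel cells and 1825 and 1772 in control cells, again with EnhDel replicate 2 apart. Siglecg, of B cells, had a log2 difference of 0.27 ± 0.16 (SE), Cd22 of 0.25 ± 0.27 and Cd33 of -0.08 ± 0.31, and Siglec1 was not well above background on any array. Across the 10 markers, the gap between the EnhDel arrays was the wider one in 8. The EnhDel gap exceeded 0.5 on the log2 scale in 4, namely Klk1, Pacsin1, Lair1 and Cox6a2, and EnhDel replicate 2 was the higher in 5 of 10.

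The 9 listed transcription factors that set up plasmacytoid dendritic cells were also well above background on all 4 arrays. Some were dimmer than every marker, such as Runx2, which read 2098 and 2263 in EnhDel cells and 2185 and 2709 in control cells. None of the 9 passed the threshold. Both EnhDel arrays lay above both control arrays for 3, where 28.6% of all genes did, and below them for 1, where 15.5% did. The median log2 difference was -0.051, and 0.015 to 0.16 without either control array or EnhDel replicate 2. Tcf4, the E protein on which the lineage depends, had signals of 45862 and 42174 in EnhDel cells and 42152 and 46090 in control cells (log2 difference 0.10 ± 0.17, SE). Irf8 read 259633 and 255451 in EnhDel cells and 288860 and 290293 in control cells (-0.061 ± 0.16), and the Ets factor gene Spib 90657 and 91087 in EnhDel cells and 87372 and 84914 in control cells (0.19 ± 0.16). Tcf4 and Irf8 overlapped between the groups, and Spib lay above both control arrays.

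Bcl11a, which acts upstream of Tcf4 and also in early B cells, had signals of 21441 and 20349 in EnhDel cells and 25170 and 26978 in control cells, with a log2 difference of -0.21 ± 0.16 (SE) by its brightest probe and 0.38 as the mean of its probes. Cbfa2t3, a corepressor that holds down Id2 in this lineage, differed by 0.34 ± 0.23. Runx2 (-0.051 ± 0.15), Zeb2 (-0.074 ± 0.22) and Ikzf1 (-0.26 ± 0.32) overlapped between groups.

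Irf7, the factor that drives type I interferon genes and is itself induced by interferon, gave the highest value of the 9 regulators. It read 3274 and 10133 in EnhDel cells and 2245 and 3252 in control cells, a log2 difference of 1.20 ± 0.55 (SE; limma adjusted p = 0.509). Without EnhDel replicate 2 it was 0.44, and with that array as the only EnhDel array it was 1.96. The interferon-stimulated list gave medians of 0.70 for EnhDel replicate 1 and 1.51 for EnhDel replicate 2, so this list too lay further from the controls on EnhDel replicate 2.

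The nucleic acid sensing genes had positive differences in 7 of 7, as had 59.8% of all tested genes, and 4 lay above both control arrays, where 28.6% of all tested genes did. The median log2 difference was 0.36, and 0.18 without EnhDel replicate 2. Tlr7, the endosomal receptor for single-stranded RNA, read 8522 and 11664 in EnhDel cells and 7531 and 7450 in control cells (0.52 ± 0.19, SE; limma adjusted p = 0.445). Tlr9, the receptor for CpG DNA, differed by 0.43 ± 0.24, and the endolysosomal nuclease gene Pld4 by 0.50 ± 0.26. Their chaperone gene Unc93b1 differed by 0.14 ± 0.18, the transporter gene Slc15a4 by 0.36 ± 0.27, the adaptor gene Myd88 by 0.24 ± 0.15 and the kinase gene Irak4 by 0.018 ± 0.18. Without EnhDel replicate 2, Pld4 differed by 0.18 and Tlr9 by 0.15, and without EnhDel replicate 1, Slc15a4 differed by 0.040. None passed the threshold with all 4 arrays, and without EnhDel replicate 1 Pld4 differed by 0.82.

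Of the other plasmacytoid dendritic cell genes, 13 of 14 were tested, and Ly6c2 was not analysed here. None passed the threshold. Both EnhDel arrays lay above both control arrays for 5, where 28.6% of all genes did, and below them for 0, where 15.5% did. The median log2 difference was 0.16, beside 0.069 over all genes tested. Lag3, an inhibitory receptor that a part of these cells carries, had the smallest p. It read 10493 and 16262 in EnhDel cells and 7039 and 7780 in control cells, a log2 difference of 0.93 ± 0.23 (SE; limma adjusted p = 0.320). Ctsl, a lysosomal protease, differed by 0.43 ± 0.14, Klra17, which encodes the receptor Ly49Q, by 0.35 ± 0.22 and Rpgrip1 by 0.24 ± 0.17.

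Markers of the gate and of other cells that it could hold were read on the same arrays. CD43 (Spn) had signals of 35839 and 37655 in EnhDel and 40604 and 45770 in control cells, Enpep, the gene of BP1, was above background on no array, and Cd24a read 4386 and 1910 in EnhDel and 4779 and 6366 in control cells. Ptprc, whose product B220 is a form of, differed by 0.49 ± 0.33 (SE). Of the B-lineage list 9 of 11 tested genes lay below both control arrays, where 15.5% of all genes did, with a median log2 difference of -1.02. At an unadjusted limma p under 0.05 there were 8 of the 11, and 11.2% of all genes. The B-cell receptor component gene Cd79a read 801 and 767 in EnhDel and 1229 and 1746 in control cells, and Pax5 was above background on at most 1 array per probe. Summed in multiples of each array's 75th percentile, the B-lineage list came to 119 and 100 on the EnhDel arrays and 133 and 140 on the control arrays. The 10 markers came to 795 and 755 on the EnhDel arrays and 787 and 728 on the control arrays.

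The monocyte and neutrophil list had 9 of 12 genes below both control arrays, where 15.5% of all genes lay, and a median of -1.36, which was -2.04 for EnhDel replicate 1 alone and -0.83 for EnhDel replicate 2 alone. Its sums were 83.2 and 121 in EnhDel and 118 and 122 in control cells. The T and NK cell list had 7 of 11 above both, where 28.6% of all genes lay, and a median of 0.65, which was 0.41 without EnhDel replicate 2 and 0.38 without control replicate 2, with sums of 21.5 and 16.2 in EnhDel and 20.9 and 18.3 in control cells. Conventional dendritic cell genes had a median of -0.093, which was 0.013 without EnhDel replicate 1 and 0.022 without EnhDel replicate 2, with 2 above, 3 below and 6 overlapping. Among these Batf3, a factor of cross-presenting dendritic cells, differed by -1.06 ± 0.34 (SE). It was dim, with signals of 40.3 and 23.4 in EnhDel and 61.2 and 77.8 in control cells. Cd209a differed by -1.04 ± 0.37 and the MHC class II gene H2-Ab1 by 0.43 ± 0.15, and Xcr1 was above background on no array. No gene of these lists passed limma's adjusted threshold, and no test compared the lists with each other.

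**Figure D4:**
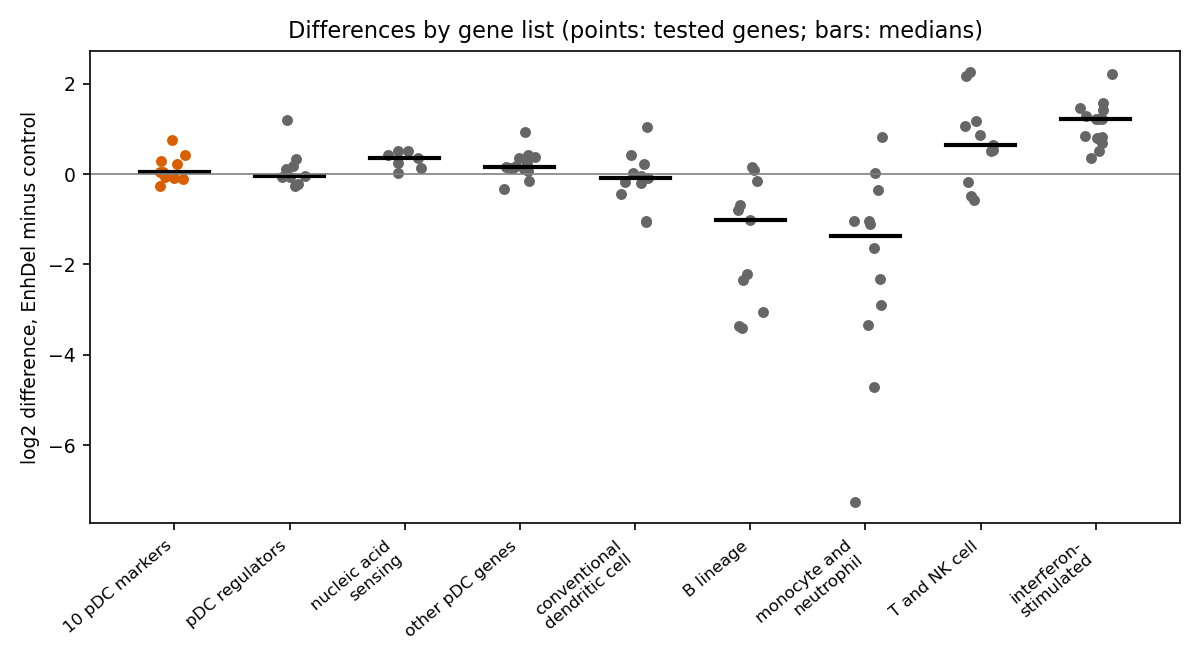
Log2 difference (vertical axis, EnhDel minus control) of each tested gene by list, with bars at the medians. The 10 markers, in orange, lie between -0.26 and 0.76 around a median of 0.045, beside medians of -1.02 for the B-lineage list and 1.22 for the interferon-stimulated list.

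The genes whose 4-array profile lay closest to that of Siglech, by Euclidean distance of mean-centred log2 values among 18212 genes, were Tprgl, Kcna4, Ncbp2, Ankrd13d and Cramp1l, at distances of 0.0087 to 0.012. Siglech itself varied by only -0.073 to 0.057 around its mean, and 808 genes lay within 0.1 of it, so the likeness lies in the absence of variation over 4 arrays.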

How the data were processed

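The authors deposited 1 scanner file per array, with spot intensity values from Agilent Feature Extraction 10.7.3.1 and probe positions on mm9, per the file headers, and flags per spot (other values). They also deposited 1 table of log2 values with 1 decimal and 31597 rows, whose normalization is not given in the sources used here (column medians 6.5).

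Control spots and 126 to 162 outlier spots per array were left out. Processed signals were put on the log2 scale, the 75th percentile of each array was subtracted, and values were averaged over a probe's spots. Signals printed are before this scaling. Probes were named by accession through RefSeq (GRCm38.p6; 26581 of 39429 matched), and a gene was read by its brightest probe. A gene was tested if well above background on both arrays of a group. Groups were compared with lmFit and eBayes (limma 3.58.1, R 4.3.3), Benjamini-Hochberg threshold 0.05. The fit was checked on simulated arrays of 19391 genes for EnhDel against control. It called 7 of 50 genes changed by 1 on the log2 scale, 47 of 50 changed by 2, and 17 unchanged genes. The simulated noise was normal, independent between genes and drawn with variances from the fit itself. Real changes of these sizes may therefore be called less often. On the real arrays Cebpa differed by -2.41 and was not called (limma adjusted p = 0.237). The number of arrays limits the precision, and no label says that samples are separate animals. The control samples differ in age (26 and 24 weeks) and the EnhDel samples in their Xist signals, so neither pair repeats a single sample. How much of the spread behind the p-values lies between animals is not known. No label says that replicate numbers pair the samples. The correlation of deviations between arrays of the same number was -0.024, which cannot settle this with 2 arrays per group. Markers, lists and tests were chosen with earlier results of these data known. Genes named are the 10 markers, the listed regulators, sensing and gate genes, Cebpa, relatives that passed the filter (1 is not reported here), up to 4 genes with the smallest p from each other list (fewer are given in the text), and the 5 genes nearest to Siglech. The genes named as not above background, and Ddx3y and Xist, fall outside this rule and were chosen after their values were seen. Alternatives are given in the closing section.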

Additional observations from a re-analysis of the deposited data

How the results depend on the processing

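Of the 10 markers, only Ccr9 and Klk1 kept their sign under all 15 alternatives, and the sign turned under at least 1 for the other 8, whose differences are small. The alternatives were normexp background correction (offset 50; as planned, and with 6 spots of high local background on EnhDel replicate 1 repaired), quantile normalization, median scaling, cyclic loess, no filter, a filter requiring all 4 arrays, averaging the probes of each gene, the authors' deposited log2 values, an intensity trend with robust variance, the replicate block, and each array left out. The median of all genes was -0.13 with median scaling and 0.19 with unrepaired normexp, against 0.069. The median over the markers ranged from -0.27 with unrepaired normexp to 0.16 with the mean of probes. Genes past the threshold numbered 23 with median scaling, 2 with the mean of probes and 1 to 2941 with 1 array left out (2941 when EnhDel replicate 1 was left out, 47 for EnhDel replicate 2, 6 for control replicate 2 and 1 for control replicate 1), and markers past it 0 to 1. The markers above both control arrays numbered 0 with unrepaired normexp, 5 with the mean of probes and 3 to 5 with 1 array left out. Those below both numbered 4 with unrepaired normexp, 3 with median scaling, 1 each with quantile normalization, cyclic loess and the authors' deposited values, and 0 to 4 with 1 array left out. The replicate block left 0 genes past the threshold and changed no call. No label says that the shared numbers pair the samples.

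Signs turned with unrepaired normexp for Siglech (-0.28), Pacsin1 (-0.025), Lair1 (-0.25), Atp1b1 (-0.014), Tcf4 (-0.20), Spib (-0.12), Unc93b1 (-0.16), Myd88 (-0.035), Rpgrip1 (-0.055), Cd33 (0.33), Ccl25 (0.012), Klk1b9 (0.84), Klk8 (0.26), Batf3 (0.51) and Lyz2 (0.21). They turned with quantile normalization for Bst2 (0.015), Irf8 (0.061) and Irak4 (-0.042), and with median scaling for Siglech (-0.15), Lair1 (-0.17), Tcf4 (-0.10), Spib (-0.018), Unc93b1 (-0.059) and Irak4 (-0.19). With cyclic loess they turned for Bst2 (0.014), Irf8 (0.032), Irak4 (-0.078) and Atp1b3 (0.00087), with the mean of probes for Bcl11a (0.38), and with the authors' deposited values for Bst2, Irf8 and Bcl11a (0.05 each). With 1 array left out, values ranged across 0 for Bst2 (-0.15 to 0.010), Pacsin1 (-0.074 to 0.53), Cox6a2 (-0.52 to 0.0032), Klk1b27 (-0.27 to 0.098), Lair1 (-0.26 to 0.34), Upb1 (-0.29 to 0.086), Tcf4 (-0.013 to 0.22), Irf8 (-0.14 to 0.015), Runx2 (-0.13 to 0.024), Zeb2 (-0.31 to 0.16), Ikzf1 (-0.67 to 0.16), Unc93b1 (-0.016 to 0.31), Irak4 (-0.13 to 0.17), Siglecf (-0.19 to 1.498), Cd33 (-0.49 to 0.32), Cd22 (-0.077 to 0.59), Cox6a1 (-0.32 to 0.054), Atp1b3 (-0.19 to 0.14), Klk1b9 (-0.65 to 0.0049), Klk1b11 (-0.68 to 1.99) and Klk1b21 (-0.12 to 1.03). Without control replicate 1, Siglech differed by 0.098, Klk1 by 0.72 and Ccr9 by 0.39. With the 6 spots repaired, normexp turned 0 of the 76 signs against 15 without the repair, and left 3 markers above and 0 below both control arrays, so those turns came with the 6 spots. The cause of the other changes was not tested. List medians without each array were added after seeing the data. The sign turned for regulators without control replicate 1 (0.015), control replicate 2 (0.024) or EnhDel replicate 2 (0.16; range with 1 array left out -0.053 to 0.16), and for conventional dendritic cell genes without EnhDel replicate 1 (0.013) or 2 (0.022; range -0.18 to 0.022). Without control replicate 1 the medians were 0.47 for sensing genes, -1.27 for the B-lineage list, 0.67 for T and NK cells, -1.31 for monocytes and neutrophils and 0.80 for the interferon-stimulated list.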
